A study of Mus musculus with 6 samples.

Results

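Tnn-high cells are the fibroblasts of the injured mouse Achilles tendon that carried many transcripts of Tnn, the gene of tenascin-N, without sign of cell division. They were chosen by measured values. A barcode of the 2 libraries of 7 days post injury (dpi) was a member when it held at least 1000 UMIs (molecules counted once each), at least 200 genes and at most 5% mitochondrial UMIs, at least 1 Pdgfra UMI, no UMI of Ptprc (leukocytes) or Cdh5 (endothelium), at least 5 Tnn UMIs and no UMI of the proliferation genes Mki67, Top2a, Cdk1 and Birc5. The rule found 1232 cells, 557 in the Gli1+ library and 675 in the Gli1- library, among 7357 cells that passed the same gate at any Tnn count, 20963 cells that passed the depth and mitochondrial filters, and 84194 barcodes in all 6 libraries. They were set against the 1388 and 2312 gated cells of the same libraries that had no Tnn UMI (Tnn=0 cells).

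The study followed Gli1-lineage cells of the tendon after Achilles tenotomy, an operation that is followed by heterotopic cartilage and bone. All mice carried Gli1-CreERT2, a tamoxifen-inducible Cre driven by Gli1, and the Ai9 reporter, and all received tamoxifen, so a sorted Gli1+ cell is one that expressed Gli1 at the time of induction or descends from one. Cells of uninjured mice, of mice at 7 dpi and of mice at 21 dpi (8 mice per time point, 24 in all) were sorted into reporter-positive and reporter-negative fractions, and each fraction gave 1 single-cell 3′ library. The cells of 8 mice cannot be separated in a library and no condition has a second one, so no test was possible: the intervals below are exact 95% intervals for counting error alone, and cells are not replicates. As the labels describe the sort, the Gli1+ and Gli1- libraries of a time point share their mice, so a difference seen in both is not seen in independent animals.

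Tenascin-N, also called tenascin-W, is a secreted glycoprotein of the extracellular matrix that is found in periosteum, in developing bone and in the stroma of remodelling tissue, and that is sparse in most resting adult tissue. Tenascins are called matricellular proteins because they act on how cells hold on to the matrix more than on its mechanical strength. Fibroblasts that fill a wound commonly lay down such proteins and may acquire actin filament bundles like those of smooth muscle, in which state they are called myofibroblasts, while the adventitial fibroblasts around vessels and sheaths are known for Pi16, Dpp4, Cd34 and Ly6a.

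Tnn was close to absent from the uninjured libraries. In gated cells it stood at 5.18 CPM, counts scaled to 1000000 UMIs, in the uninjured Gli1+ library and 2.11 in the uninjured Gli1- library, at 324 and 267 CPM at 7 dpi, and at 149 and 150 CPM at 21 dpi. Non-dividing cells with at least 5 Tnn UMIs were 6 of 1505 (0.399%) and 2 of 4574 (0.0437%) gated cells without injury. They were 18.7% (interval 17.3 to 20.1) of gated cells in the Gli1+ library and 15.4% (14.4 to 16.5) in the Gli1- library at 7 dpi. At 21 dpi they were 9.28% (8.50 to 10.1) and 9.38% (8.59 to 10.2). The rule chose the 7 dpi libraries for these cells, so the order of the time points is a description. The order of the 2 sorts at 7 dpi turned when Pdgfra was not required, with 13.6% in the Gli1+ and 13.9% in the Gli1- library.

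**Figure D1:**
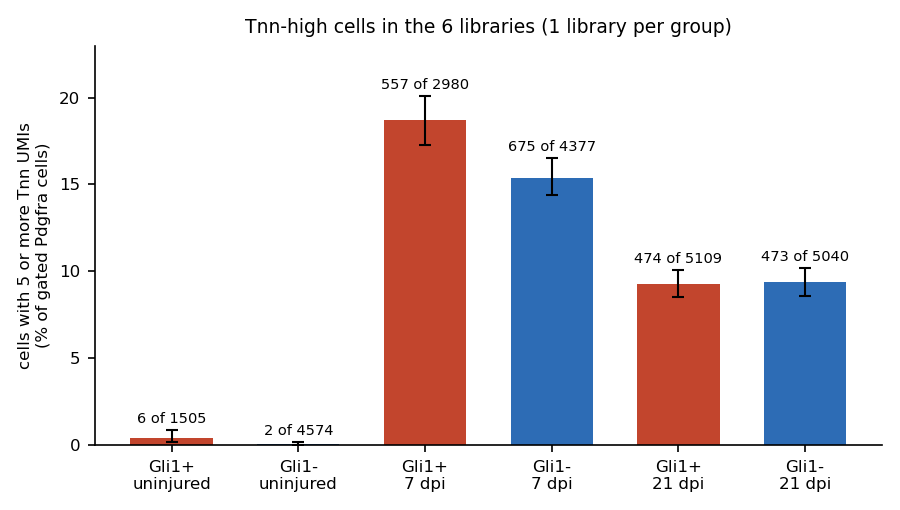
Share of gated Pdgfra cells with 5 or more Tnn UMIs in each of the 6 libraries (y axis, percent of gated cells), with the numbers of cells above the bars and exact 95% binomial intervals for counting error as error bars. The bars stand at 18.7% and 15.4% at 7 dpi, at 9.28% and 9.38% at 21 dpi and under 1% without injury.

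Cells lay on both sides of the threshold without a gap. In the Gli1+ library at 7 dpi 1035 gated cells had 1 to 4 Tnn UMIs, 88 of them exactly 4, and 79 members had exactly 5. In the Gli1- library 1390 cells had 1 to 4, 108 of them exactly 4, and 79 members had exactly 5. The median member held 10 Tnn UMIs in the Gli1+ library (middle range 7 to 17, highest 102) and 11 in the Gli1- library (7 to 19, highest 118). Dividing cells were left out by the rule, and they were many: 785 and 808 cells with 5 or more Tnn UMIs carried a proliferation gene. These were 58.5% and 54.5% of all Pdgfra cells with 5 or more Tnn UMIs at 7 dpi, against 28.0% and 24.9% at 21 dpi. At any Tnn count, 2241 and 2173 Pdgfra cells carried a proliferation gene at 7 dpi and 2980 and 4377 did not. At 21 dpi 696 and 586 carried one and 5109 and 5040 did not, so dividing cells were fewer then at any Tnn count. Members were also deep cells, with a median of 14334 UMIs and 4104 genes in the Gli1+ library and 17327 UMIs and 4481 genes in the Gli1- library, where the Tnn=0 cells held 7182 and 7516 UMIs.

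Low counts of Tnn were also found in cells of another type. Endothelial cells with Cdh5 and Pecam1 and without Pdgfra, which should lack Tnn, had a Tnn UMI in 33.7% of 104 cells in the Gli1+ library (median 4368 UMIs) and in 21.3% of 755 cells in the Gli1- library (median 3299 UMIs) at 7 dpi, at 86.8 and 82.2 CPM. Only 1 and 12 of them reached 5 Tnn UMIs. Krt14, an epidermal keratin, was found in 100% of members, 98.7% of Tnn=0 cells and 99.0% of endothelial cells of the Gli1+ library, against 16.6%, 10.4% and 6.62% in the Gli1- library. No barcode was a member in more than 1 library, but few could be: the 7 dpi pair shared 53 barcodes, of which 2 were Gli1+ members. Scoring for doublets marked 59 of 557 and 72 of 675 members among the highest scores, and they were kept. Of all cells that passed the filters it marked 810 of 10064 and 950 of 10899, numbers set in advance. The labels state an equal distribution of the sexes, yet 475 and 616 members at 7 dpi had Y-linked and no Xist UMIs and 0 and 1 had Xist alone, whereas at 21 dpi 443 and 456 cells of the same rule had Xist alone and none had Y-linked UMIs alone, so 7 and 21 dpi cannot be told apart from sex. Without injury gated cells of the Gli1- library were Y-linked (3306, and 0 with Xist alone), as at 7 dpi, while those of the Gli1+ library were of both kinds (356 and 952), although both fractions are described as sorted from the same mice.

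Because of the difference in depth, each member was paired with a Tnn=0 cell of its library with total UMIs within 10%. Pairs were found for 400 members in the Gli1+ library and 511 in the Gli1- library. The 157 and 164 members without a partner were deeper still, with medians of 19599 and 22893 UMIs, and enter only the counts above and the levels over the range of Tnn below. The paired cells held medians of 12678 against 11692 UMIs and 15576 against 14369. Ratios below are log2 ratios of CPM of the summed UMIs of members over those of their partners, and a gene is called higher or lower when it differed at least 2-fold in both libraries in the same direction.

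Of 8448 genes with at least 100 UMIs in the paired cells of each library, 72 were at least 2-fold higher in members (0.852% of genes) and 174 were at least 2-fold lower (2.06%). The median log2 ratio of all genes was 0.06 in the Gli1+ library and 0.09 in the Gli1- library. Among the 15 genes with the highest ratios were Fhod3, Actg2, Acta2 and Tagln, which encode proteins of the actin cytoskeleton, and the cartilage matrix genes Col2a1 and Acan. Among the 15 with the lowest were the adventitial gene Pi16, the chemokine Ccl11 and the tenascin Tnxb. When cells with a UMI of the adventitial genes Pi16 or Dpp4 were left out of both arms, 230 and 211 pairs were left, and 23 genes were higher and 68 lower.

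**Figure D2:**
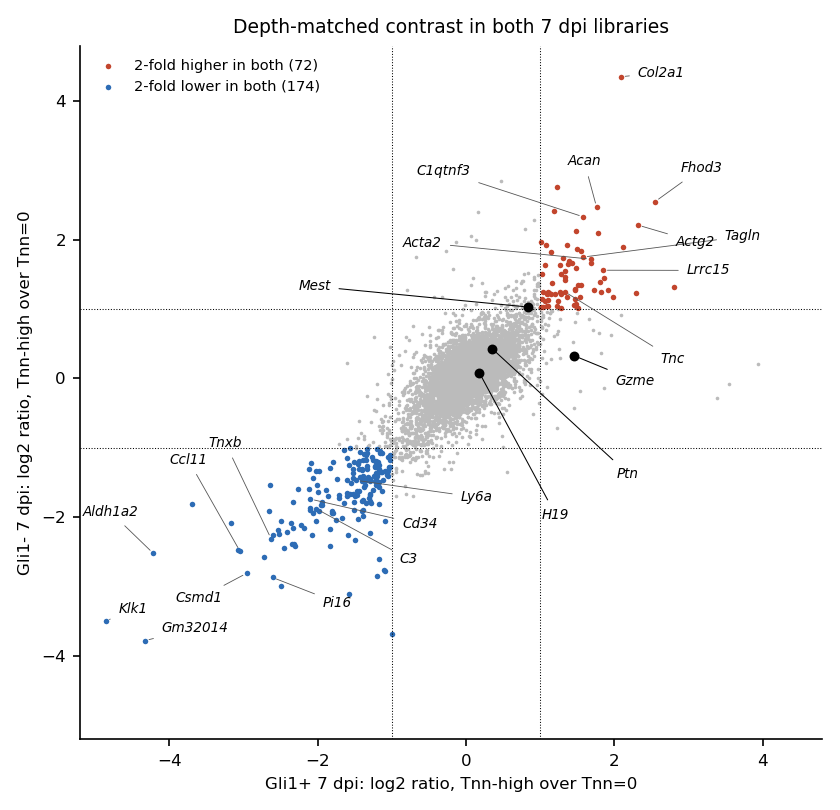
Log2 ratio of members over depth-paired Tnn=0 cells for 8448 genes (points) in the Gli1+ 7 dpi library (x axis) and the Gli1- 7 dpi library (y axis), with dotted lines at 2-fold. Red and blue points are the 72 higher and 174 lower genes, black points the genes H19, Mest, Ptn and Gzme, and 2 genes lie outside the axes.

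Of the genes that label these cells beside Tnn, which the rule used, none was called in both libraries. H19, an imprinted noncoding RNA, stood at 438 CPM in members against 387 in partners in the Gli1+ library and at 573 against 543 in the Gli1- library, log2 ratios of 0.18 (interval 0.09 to 0.27) and 0.08 (0.02 to 0.14). Ptn, the growth factor pleiotrophin, stood at 736 against 577 CPM and at 835 against 618, ratios of 0.35 (0.28 to 0.42) and 0.43 (0.38 to 0.49). Neither ratio reached 2-fold, and without Pi16 or Dpp4 cells that of Ptn was -0.24 and -0.22 and that of H19 0.08 and -0.18. More members than partners held a Ptn UMI, 89.8% against 72.0% and 91.2% against 72.6%, while 5 cells held 20.4% and 15.3% of its UMIs in partners. Mest, another imprinted gene, came closest, at 261 against 147 CPM and 313 against 153, ratios of 0.83 (0.70 to 0.96) and 1.03 (0.93 to 1.13). Without Pi16 or Dpp4 cells the ratios of Mest were 0.48 and 0.55. In the same contrast at 21 dpi Mest went the other way, at -1.08 (-1.38 to -0.78) in the Gli1+ library and -0.22 in the Gli1- library. There H19 was at 0.11 and 0.23 and Ptn at -0.15 and -0.09. Gzme, a granzyme whose reads may be shared with near-identical granzyme genes, was at 38.0 against 13.9 CPM and at 24.2 against 19.2, and 5 cells held 67.0% and 60.7% of its UMIs in members.

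Levels of those 4 genes also differed between the time points, of which 7 and 21 dpi cannot be told apart from sex. They were named from earlier results of these data, so the order is a description. In all gated cells H19 stood at 18.8 and 6.89 CPM in the uninjured Gli1+ and Gli1- libraries, at 393 and 533 at 7 dpi and at 85.9 and 91.9 at 21 dpi. Ptn went from 43.3 and 15.2 CPM to 618 and 651 and then 211 and 152. Mest stood at 21.5 and 25.4 CPM, then 186 and 198, then 45.0 and 46.8. All of them were highest at 7 dpi in both sorts, in cells with and without Tnn. None of 9 fibroblast identity genes was called between the arms. Col1a1, the main collagen chain of tendon, was at 18427 against 16834 CPM in the Gli1+ library and at 20025 against 22069 in the Gli1- library.

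Of 13 tested genes of the actin cytoskeleton 6 were called higher, beside 0.852% of all genes, and none lower. The median ratio of the list was 1.04 and 0.96 beside 0.06 and 0.09 over all genes. Acta2, which encodes smooth muscle alpha-actin, stood at 888 CPM in members and 277 in partners in the Gli1+ library and at 546 against 166 in the Gli1- library, ratios of 1.68 (1.59 to 1.77) and 1.72 (1.63 to 1.81). Tagln, the actin-binding transgelin, was at 583 against 196 and at 417 against 124 CPM. Actg2, smooth muscle gamma-actin, was rarer, at 42.4 against 8.50 and at 23.3 against 5.04 CPM. Myl9, a regulatory light chain of myosin, was at 211 against 63.7 and at 140 against 57.7 CPM, and Tpm2, a tropomyosin, at 442 against 183 and at 260 against 83.8 CPM. Cnn2, a calponin, lay near the limit with ratios of 1.04 and 1.03. Members were above partners in both libraries for each of these 6 genes, as the call requires.

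Outside that list, 4 of the 15 highest genes encode proteins known to bind or regulate actin or focal adhesions, and they were picked after their values were seen. Fhod3, a formin that assembles actin filaments, had the highest ratio of the genes ranked by the library nearer to 0: 99.5 against 17.0 CPM in the Gli1+ library and 61.4 against 10.5 in the Gli1- library, both 2.55. With bins of depth the Gli1- ratio of Fhod3 was 1.03, and Fhod3 was then not at the top. Rflnb, which binds the actin crosslinker filamin, stood at 141 against 41.1 and at 116 against 27.1 CPM, Tes, a protein of focal adhesions, at 58.5 against 18.2 and at 42.9 against 13.5, and Cdc42ep3, an effector of the GTPase Cdc42, at 63.7 against 22.8 and at 43.0 against 14.3. Cdc42ep3 was at 0.96 in the Gli1+ library with bins of depth, and Tes at 0.90 there with comparison cells held to fewer gates. The adhesion protein Vcl, with 0.60 and 0.72, and Cald1, with 0.93 and 0.71, did not reach 2-fold. Smooth muscle and pericyte markers were not higher in members: Myh11, the myosin of differentiated smooth muscle, stood at 10.2 CPM in both arms of the Gli1+ library and at 10.7 against 15.1 in the Gli1- library, and Rgs5, a pericyte gene, at 8.87 against 14.3 and at 34.3 against 39.7. Of 5 tested mural markers none was higher and 2, Kcnj8 and Abcc9, were lower, beside 0.852% and 2.06% of all genes. The sum of the 8 markers was 64.6 CPM in members against 96.8 and 94.8 against 143.

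The contractile ratios depended on which cells members were compared with. When Tnn=0 cells needed only depth, mitochondrial share and Pdgfra, so that dividing, Ptprc and Cdh5 cells were let in, all 6 genes were under 2-fold in at least 1 library: Acta2 stood at 0.90 and 0.44, Tagln at 1.09 and 0.87, Actg2 at 1.37 and 0.62, Myl9 at 1.24 and 0.72, Tpm2 at 0.60 and 0.92 and Cnn2 at 0.85 and 0.72. With bins of depth in place of pairs Acta2 and Actg2 kept the call, while Tagln (0.90), Myl9 (0.69) and Cnn2 (0.59) lost it in the Gli1- library and Tpm2 (0.96) in the Gli1+ library. Without cells that carried Pi16 or Dpp4 Acta2 was at 1.63 and 1.24. By that alternative Myl9 (0.93 in the Gli1- library) and Cnn2 (0.64 and 0.71) were no longer called. Cnn2 also lost its call with TMM scaling, at 0.99 and 0.95, and with at least 3 Tnn UMIs, at 0.95 and 0.96. The cause was not tested.

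Serum response factor, with its cofactors, is known to drive many contractile genes through a short element called the CArG box. RefSeq promoter windows (GRCm38.p6, 250 bases before to 50 after the start) were searched for CC, 6 bases of A or T and GG. That pattern is the same on both strands. It was in 4 of 60 windows (6.67%) of the 50 higher genes that had one, those of Cnn2, Myl9, Pdgfc and Schip1, in 1 of 167 windows (0.599%) of lower genes, in 114 of 8694 windows (1.31%) of all tested genes and in 1.63% of 32851 windows in the table. Of the 6 higher contractile genes Actg2 and Tagln had no window, 2 of the 4 others held the box, and 0 of 10 windows of the contractile genes that were not called did. The 250 bases before the start of both genes are shown, on the plus strand, Cnn2 at chr10:79988350-79988599 and Myl9 at chr2:156775214-156775463, with the box in capitals, its first base 56 and 161 bases before the start. A match is a sequence in a window and says nothing of whether the factor binds there. A window without a match may still hold a box that differs from the pattern, which was not searched.
Cnn2: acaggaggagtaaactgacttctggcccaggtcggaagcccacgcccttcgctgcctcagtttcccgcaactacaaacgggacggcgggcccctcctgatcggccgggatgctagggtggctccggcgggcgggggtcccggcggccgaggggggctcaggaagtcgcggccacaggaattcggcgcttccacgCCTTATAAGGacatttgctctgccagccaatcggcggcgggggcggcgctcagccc
Myl9: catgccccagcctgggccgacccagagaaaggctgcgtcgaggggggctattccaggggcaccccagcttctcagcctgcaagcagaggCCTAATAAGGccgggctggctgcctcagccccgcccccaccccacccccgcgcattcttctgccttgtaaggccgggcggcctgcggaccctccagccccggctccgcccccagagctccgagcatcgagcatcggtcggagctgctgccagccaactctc

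Among matrix genes, the other tenascins went opposite ways. Tnc, the tenascin of wounds and developing tendon, stood at 2818 CPM in members against 1122 in partners in the Gli1+ library and at 2599 against 1091 in the Gli1- library, ratios of 1.33 and 1.25. The call was lost with bins of depth (0.96 in the Gli1- library) and without Pi16 or Dpp4 cells (0.91). Tnxb, the tenascin of resting connective tissue, stood at 21.8 against 135 and at 36.1 against 179 CPM, ratios of -2.63 and -2.31. Of 18 matricellular genes Tnc and the Wnt-induced Ccn4 were higher, Tnxb and Ccn5 lower, and 14 were not called. Over all genes 0.852% were higher and 2.06% lower. Postn, periostin, was at 4681 against 2853 and at 5294 against 3448 CPM, short of 2-fold.

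Of 10 fibrillar collagen chains Col2a1 and Col27a1 were called higher, beside 0.852% of all genes. The call of Col2a1 rested on a few cells, described below. Of 12 other chains Col12a1, which coats collagen fibrils, was higher at 1350 against 623 and at 1151 against 490 CPM. That call of Col12a1 was lost with bins of depth (0.98 in the Gli1+ library) and without Pi16 or Dpp4 cells (0.88 and 0.85). The basement membrane chains Col4a1 and Col4a2 were lower, as were Col15a1 and Col14a1, where 2.06% of all genes were lower. Col14a1 was under 2-fold under several alternatives (-0.94 and -0.98 with at least 3 Tnn UMIs). Col4a1 stood at 47.8 against 138 and at 92.7 against 250 CPM. None of 16 genes of protein folding in the endoplasmic reticulum was called.

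Of 12 genes listed for activated repair fibroblasts 3 were called higher, beside 0.852% of all genes: Lrrc15, Acta2 and Tnc. Lrrc15, a membrane protein of activated and tumour fibroblasts, stood at 284 against 78.6 CPM in the Gli1+ library and at 175 against 59.7 in the Gli1- library. After thinning each cell to 5000 UMIs, which left out 10 and 5 members and 390 and 601 Tnn=0 cells, it was found in 57.4% and 46.7% of members, in 22.2% and 14.4% of Tnn=0 cells and in 11.4% and 15.2% of endothelial cells (79.3% and 74.3% of members before thinning). Cthrc1, another gene of such cells, was at 1036 against 681 and at 1094 against 576 CPM. Fap went the other way, at 59.8 against 130 and at 101 against 169 CPM. C1qtnf3, a secreted protein with a C1q domain, was among the most abundant higher genes, at 675 against 225 and at 914 against 181 CPM.

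**Figure D3:**
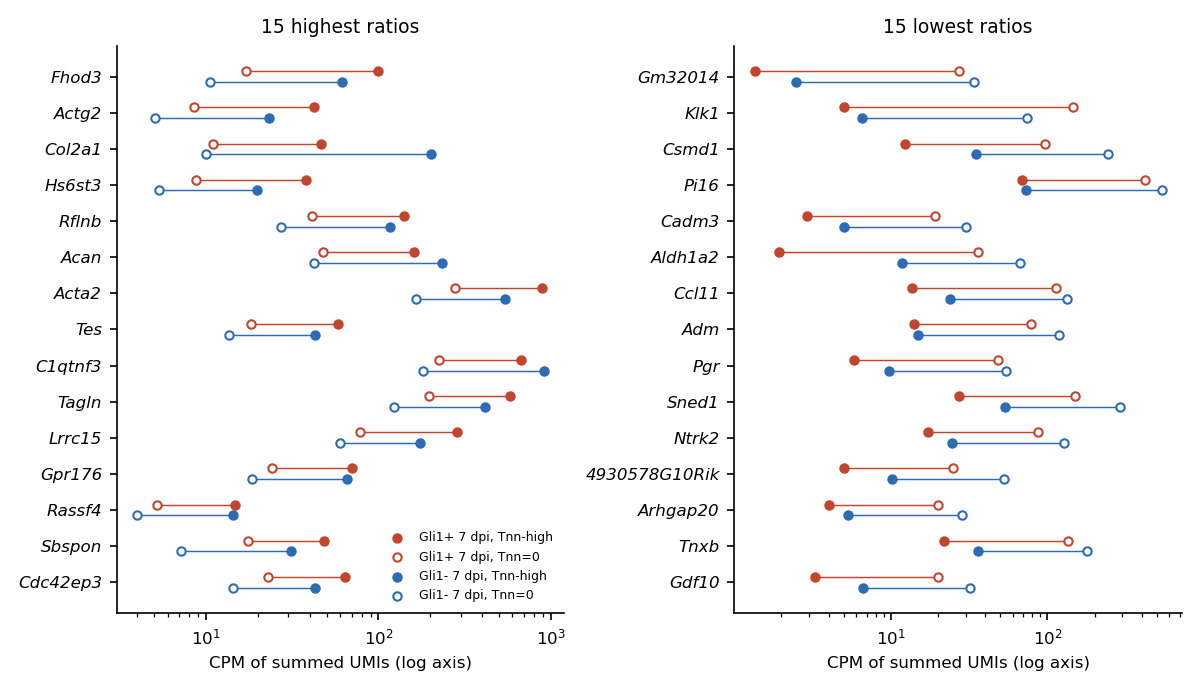
CPM of summed UMIs (x axis, log scale) in members (filled) and depth-paired Tnn=0 cells (open) for the 15 genes with the highest and the 15 with the lowest ratio, in the Gli1+ library (red) and the Gli1- library (blue) of 7 dpi. Filled points lie to the right of open points for every gene of the left panel and to the left for every gene of the right panel, as the ranking requires.

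Of 7 tested cartilage genes Acan and Col2a1 were called higher, beside 0.852% of all genes, and none lower. The medians of the list were 0.95 and 1.36, beside 0.06 and 0.09 over all genes. Acan, the large proteoglycan of cartilage, stood at 160 against 47.5 CPM in the Gli1+ library and at 234 against 42.2 in the Gli1- library, and Sox9, the regulator of cartilage formation, at 114 against 59.1 and at 133 against 59.7. After thinning, Acan was found in 36.2% and 44.5% of members, in 13.1% and 10.8% of Tnn=0 cells and in 15.9% and 11.6% of endothelial cells, and before thinning in 54.3% and 66.0% of members. It was thus spread over many members. Sox9 was at 0.95 and 1.15, short of the call in 1 library.

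Col2a1, the collagen of cartilage, was carried by a handful of cells. It stood at 46.7 against 11.0 CPM and at 202 against 9.95 CPM, but 5 cells held 80.2% and 93.4% of its UMIs in the paired members, and without the 5 richest cells of each arm the ratios were -0.04 and 0.60. The Gli1+ ratio was -0.06 with at least 3 Tnn UMIs as the threshold, while the Gli1- ratio was then 3.93. Of all 675 members of the Gli1- library 8 had 10 or more Col2a1 UMIs, and the 5 richest held 357 to 536 each. Those 5 cells also held 64.7% of Col9a1, 59.0% of Col9a2, 64.2% of Col9a3, 76.5% of Hapln1, 69.8% of Matn3 and 58.7% of Cnmd UMIs of the members, genes of cartilage matrix, but 13.4% of Acan and 2.99% of Sox9. The Gli1+ library had 1 such member, with 180 Col2a1 UMIs. Of 1388 and 2312 Tnn=0 cells none reached 10. Cells with 10 or more Acan UMIs were more, 34 and 79 members and 4 and 5 Tnn=0 cells. The counts of cells with 10 or more UMIs were taken over all cells, neither paired by depth nor thinned, and members were the deeper cells.

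Tendon genes were split between the libraries. Scx, the transcription factor of tendon progenitors, was at 61.0 against 35.2 CPM in the Gli1+ library and at 74.8 against 16.8 in the Gli1- library, ratios of 0.79 and 2.15. Tnmd, a membrane protein of mature tendon cells, was at 92.8 against 95.4 and at 113 against 56.6 CPM. Of 13 tested tendon genes none was called higher, and Angptl7 and Col14a1 were lower, where 2.06% of all genes were. The call of Col14a1 was lost under several alternatives (-0.94 and -0.98 with at least 3 Tnn UMIs). The medians of the list were -0.25 and 0.41. Levels of Scx in members were alike in both sorts, at 65.2 and 73.0 CPM over all members, and it was the Tnn=0 cells that differed, with a ratio of Gli1+ over Gli1- of 1.07.

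Among the 40 gene lists, that of stem and adventitial fibroblasts held the most lower genes. Of 16 tested genes 13 were called lower and none higher, and the median ratio was -1.42 in both libraries, where 2.06% of all genes were lower and the median of all genes was 0.06 and 0.09. Pi16 stood at 69.1 CPM in members against 420 in partners in the Gli1+ library and at 73.2 against 537 in the Gli1- library, ratios of -2.61 (-2.77 to -2.44) and -2.87 (-3.00 to -2.75). Clec3b, the plasminogen-binding tetranectin, was at 51.9 against 293 and at 84.7 against 354 CPM, and Cd34, a sialomucin of progenitor cells, at 64.2 against 276 and at 102 against 343 CPM. Ly6a, which encodes the stem cell antigen Sca-1, stayed abundant, at 473 against 1317 and at 628 against 1737 CPM. Tppp3, a marker of tendon sheath progenitors, had the smallest difference of the called genes, with -1.37 and -1.09, and was under 2-fold in the Gli1- library with bins of depth (-0.87), in thinned cells (-0.84) and with comparison cells held to fewer gates (-0.95), and Mfap5, Fbn1 and Opcml were not called. Levels in members were below those of partners in both libraries for all 16. Without Pi16 or Dpp4 cells Ly6a (-0.94 and -0.93) and Cd55 (-0.46 and -1.24) were no longer called.

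Of 24 tested chemokine, cytokine and complement genes 10 were lower, none was higher and 14 were not called, with medians of -0.33 and -0.53, where 2.06% of all genes were lower. Ccl11, the eosinophil chemokine eotaxin, stood at 13.7 against 114 CPM and at 23.8 against 134, the complement component C3 at 106 against 428 and at 197 against 723, and Il33, an alarmin, at 34.1 against 121 and at 32.9 against 175. The chemokine Cxcl14 was at 115 against 406 and at 127 against 570 CPM. Ccl2, which attracts monocytes, was among the genes not called, at 922 against 912 and at 979 against 879 CPM.

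Further genes at the low end were of many kinds. Klk1, a kallikrein with close paralogs that may share its reads, stood at 5.02 against 145 CPM and at 6.53 against 74.0, but 5 cells held 64.9% and 57.2% of its UMIs in partners, and a UMI was found in 6.25% of members and 9.75% of partners in the Gli1+ library. Without the 5 richest cells of each arm its ratios were -3.72 and -3.92. Aldh1a2, which makes retinoic acid, was at 1.93 against 35.9 and at 11.7 against 67.2, Adm, the vasodilator adrenomedullin, at 14.1 against 79.0 and at 14.8 against 118, and Pgr, the progesterone receptor, at 5.79 against 48.7 and at 9.74 against 54.4. The neurotrophin receptor Ntrk2 was at 17.2 against 87.3 and at 24.5 against 128 CPM. The ratios of Gm32014 were -4.33 and -3.78, and those of Csmd1 -2.96 and -2.81. Each of these genes was below its partner level in both libraries, as the ranking requires.

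Calls among signalling genes were read beside 0.852% higher and 2.06% lower of all genes. Of 14 BMP genes the ligand Gdf10, the antagonists Chrd and Bmper and the target Id2 were lower. Chrd was under 2-fold under 4 alternatives (-0.97 and -0.93 by Tnn per 10000 UMIs), Id2 with bins of depth (-0.91 in the Gli1- library) and Bmper with comparison cells held to fewer gates (-0.69 in the Gli1+ library). Of 12 Wnt genes the receptor Lgr5 was higher, at 71.2 against 34.6 and at 54.7 against 23.1 CPM, and the secreted modulator Sfrp4 lower, at 70.2 against 285 and at 82.6 against 341. The call of Lgr5 was lost under 6 alternatives, with 0.48 and 0.67 by bins of depth and 0.82 and 0.95 with at least 3 Tnn UMIs. Of 11 PDGF and FGF genes the ligand Pdgfc was higher, at 82.0 against 28.8 and at 56.2 against 28.0 CPM, and Fgf2 and Fgf18 lower. The Gli1- ratio of Pdgfc, 1.01, was at the limit, and was 0.92 with TMM scaling and 0.81 with bins of depth. Of 21 TGF-beta and activin genes Inhbb alone was called, as lower. Of 24 genes of cyclic AMP and protein kinase A signalling Pthlh alone was called, as lower. Gnas, which encodes the stimulatory G protein, stood at 1227 against 2139 CPM and at 1312 against 2390, ratios of -0.80 and -0.87. None of 8 hedgehog genes was called, and Gli1 itself had 6 against 14 UMIs and 4 against 13 in the paired cells, too few for a comparison. None of 11 integrins, 13 imprinted genes, 9 small leucine-rich proteoglycans or 15 mesenchymal transcription factors was called. Nor was any of 12 other cell cycle genes, but the gate had left out cells with Mki67, Top2a, Cdk1 or Birc5 from both arms. That count thus cannot show whether cells with much Tnn divide more or less.

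Markers of epidermal, endothelial and immune cells summed to lower levels in members than in partners, and no Schwann cell or muscle marker reached the minimum for testing. The sum of 8 epidermal markers was 2319 CPM in members against 5516 in partners in the Gli1+ library and 30.8 against 127 in the Gli1- library. That of 8 endothelial markers was 26.0 against 33.0 and 54.2 against 65.9, and that of 10 immune markers 23.3 against 97.7 and 10.4 against 19.1. Of the epidermal genes tested Krt10 and Krt1 were called lower, and S100a8 was the immune gene called lower, beside 2.06% of all genes. A set of 14 stress and dissociation genes summed to 14019 against 17055 and 14322 against 17749 CPM with none called. The part of these differences in the lists above was not tested. Hemoglobin was uneven, with Hbb-bs at 53.2 against 4.56 CPM in the Gli1+ library and 14.7 against 15.5 in the Gli1- library.

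Several levels differed between cells with few and with many Tnn UMIs. In cells thinned to 5000 UMIs, Tnc stood at 775, 1398, 2440, 3071 and 3885 CPM in Gli1+ cells with 0, 1 to 4, 5 to 9, 10 to 19 and 20 or more Tnn UMIs, and at 544, 1104, 2159, 2746 and 3350 in Gli1- cells. Acta2 stood in the Gli1+ library at 240, 389, 830, 810 and 845 CPM, while in the Gli1- library it stood at 155, 298, 408, 617 and 672. Pi16 was at 474, 313, 96.7, 42.1 and 50.9 CPM and at 597, 402, 77.1, 63.2 and 47.2. The cells just below the threshold were thus between the arms for these 3 genes. H19, at 329, 426, 457, 466 and 336 and at 438, 618, 664, 523 and 514 CPM, and Ptn, at 480, 757, 793, 594 and 774 and at 514, 730, 898, 715 and 681, had no such order.

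**Figure D4:**
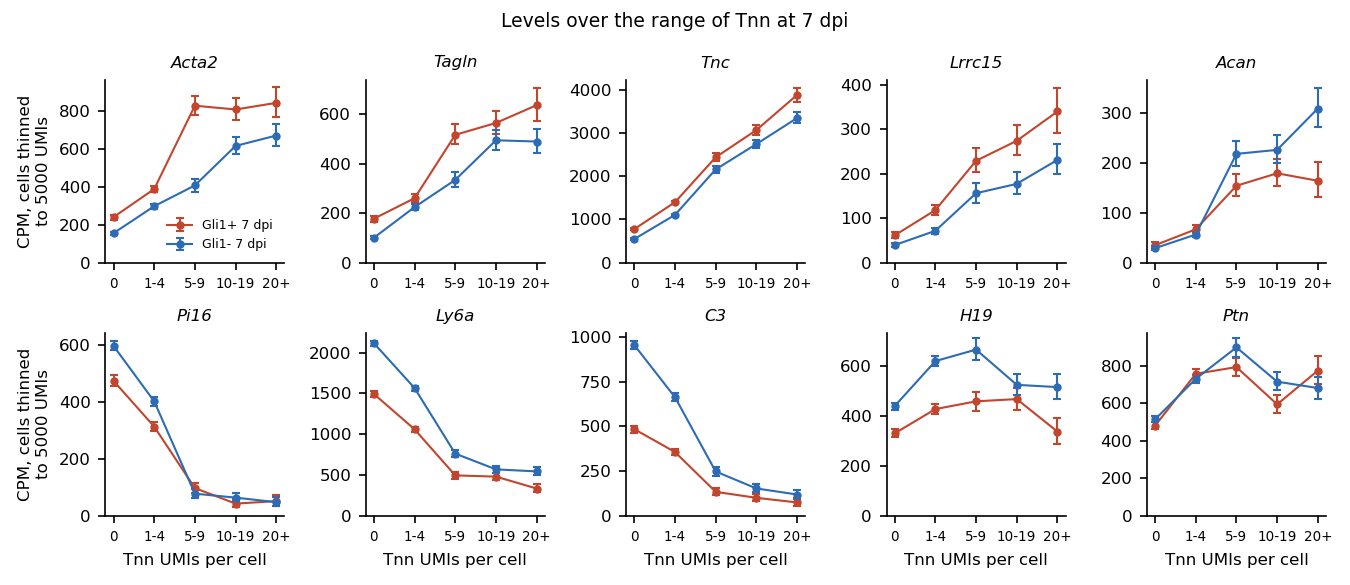
CPM in cells thinned to 5000 UMIs (y axis, from 0) in gated cells of 7 dpi grouped by Tnn UMIs at full depth (x axis), in the Gli1+ library (red) and the Gli1- library (blue), with exact 95% Poisson intervals for counting error. Acta2, Tagln, Tnc, Lrrc15 and Acan are higher and Pi16, Ly6a and C3 lower in each group of 5 or more Tnn UMIs than in cells without Tnn, while H19 and Ptn have no steady order.

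Members differed among themselves. The summed UMIs of Acta2, Tagln, Actg2, Myl9 and Tpm2 after thinning had a median of 5 in Gli1+ members and 3 in Gli1- members, against 1 in Tnn=0 cells of either library. At least 5 such UMIs were found in 54.3% and 40.3% of members and in 12.2% and 6.02% of Tnn=0 cells, while 7.86% and 12.2% of members had none. An Acta2 UMI alone was found in 70.7% and 64.3% of thinned members, in 47.5% and 41.6% of Tnn=0 cells and in 61.4% and 52.0% of endothelial cells. At least 2 UMIs of Acan and Col2a1 were found in 21.4% and 27.5% of members against 3.31% and 2.86% of Tnn=0 cells. The contractile and cartilage counts met in 13.5% of the contractile-high members of the Gli1+ library and 29.3% of those of the Gli1- library, so the order against the shares of all members (21.4% and 27.5%) was not the same in both. Pi16, Cd34 and Ly6a summed to a median of 2 and 3 UMIs in members and 9 and 14 in Tnn=0 cells.

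Genes that differed between members of the 2 libraries included keratins, which differed in other cells too, and cartilage genes of a few cells. Over all members, Tnn, which the rule used, stood at 939 CPM in the Gli1+ library and 877 in the Gli1- library, Tnc at 2919 and 2769, Acta2 at 814 and 551 and Tagln at 547 and 433. Of 10344 genes tested, 140 were at least 2-fold higher in Gli1+ members (1.35%) and 47 were at least 2-fold lower (0.454%). Of the 140, 110 (78.6%) were also 2-fold higher in Gli1+ Tnn=0 cells, with keratins at the top: the log2 ratio of Gli1+ over Gli1- members was 8.27 for Krt1 and 6.37 for Krt14. Of the 47 genes higher in Gli1- members 12 (25.5%) were 2-fold higher in Gli1- Tnn=0 cells as well. The remainder held the cartilage genes of the few cells described above, with Col2a1 at 32.7 CPM in Gli1+ and 221 in Gli1- members. Gli1 had 8 UMIs in Gli1+ members and 9 in Gli1- members, and the reporter transcript was not analysed here.

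The 21 dpi libraries, which the rule did not use, held 474 and 473 cells of the same definition, of which 415 and 439 were paired. Of 8276 genes tested there, 42 were at least 2-fold higher in both libraries (0.507%) and 147 at least 2-fold lower (1.78%). Of the 72 genes higher at 7 dpi, 67 could be tested in all 4 libraries, 17 (25.4%, which is 40.5% of the 42) were again 2-fold higher in both and 61 were above 0 in both, where 38.6% of all genes were. Of the 174 lower genes 156 could be tested, 80 (51.3%, which is 54.4% of the 147) were again 2-fold lower and 148 were below 0 in both, where 35.5% of all genes were. None was 2-fold the opposite way in both.

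At 21 dpi none of the 13 contractile genes was called, and the median ratio of the list was 0.62 and 0.40. Acta2 stood at 0.79 in the Gli1+ library and -0.22 in the Gli1- library, Tagln at 0.70 and 0.38, and Actg2 at 0.62 and -0.88. In the Gli1- library 5 cells held 32.6% of Acta2 and 62.5% of Actg2 UMIs of the partners, against 20.6% and 34.6% in the Tnn-high arm. By cells the arms still differed. After thinning, at least 5 UMIs of Acta2, Tagln, Actg2, Myl9 and Tpm2 were found in 27.1% and 22.3% of Tnn-high cells. The shares of Tnn=0 cells were 4.50% and 6.32%. Of the matrix genes none of 18 matricellular genes, 10 fibrillar and 12 other collagens was called higher either. Of 7 cartilage genes Acan alone was, at 2.25 and 1.73, beside 0.507% of all genes, with Col2a1 at 1.57 and -0.28. Tnc stood at 1.09 and 0.87. The formin Fhod3, at 1.38 and 1.67, and Lrrc15, at 1.01 and 1.18, were 2-fold higher at both time points. Of 16 adventitial genes 7 were called lower, beside 1.78% of all genes, against 13 at 7 dpi. Pi16 stood at -2.38 and -2.19, and the median was -1.18 and -1.02. Ly6a, Clec3b and Tppp3 were among those no longer called. The difference between the time points was not tested, since each has 1 library per sort and cells of the other sex.

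**Figure D5:**
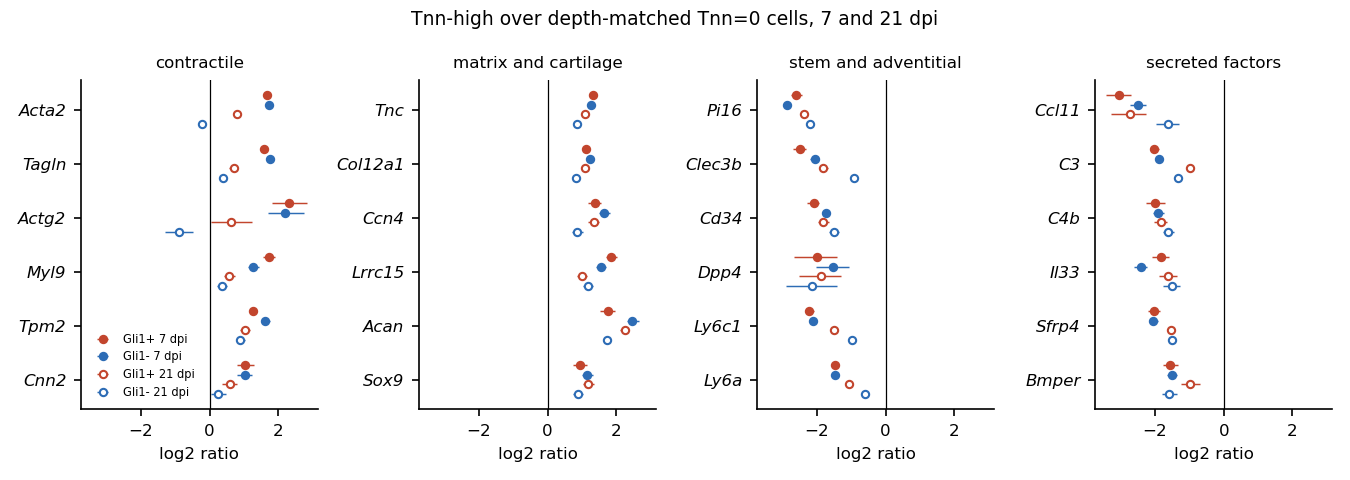
Log2 ratio of cells with 5 or more Tnn UMIs over depth-paired Tnn=0 cells (x axis) for contractile, matrix, adventitial and secreted factor genes, at 7 dpi (filled) and 21 dpi (open) in the Gli1+ (red) and Gli1- (blue) libraries, with exact 95% intervals for counting error. Acta2 stands at 1.68 and 1.72 at 7 dpi and at 0.79 and -0.22 at 21 dpi, while Pi16 is below -2 in all 4 libraries.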

How the data were processed

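Cells of Achilles tendons were sorted by the authors into Gli1+ and Gli1- fractions and sequenced as 6 single-cell 3′ libraries. The deposited values are UMI counts per gene and cell for 33696 genes, not normalized; the submitters' processing notes name Cell Ranger 3.1.0, STAR and mm10, and the file headers name cellranger 9.0.0. Totals per cell limit the precision: the paired cells held sums of 4823202 to 8114901 UMIs per arm and library at 7 dpi.

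UMIs were summed over members and over depth-paired Tnn=0 cells within each library and scaled to CPM. Intervals are exact Poisson for CPM and exact binomial for shares and for the split of a gene's UMIs between the arms, at 95%. Genes needed 100 UMIs in the paired cells of each library. No test was run, since each condition has 1 library. The genes named first were the 15 highest and 15 lowest by the ratio of the library nearer to 0, with the genes of the label, and members of 40 gene lists. The members and lists were chosen with earlier results of these data known. Likely doublets were scored with scanpy 1.11.5 (Scrublet, 0.8% per 1000 cells) and removed only as an alternative. The calculation was checked on simulated counts. Python 3.11.15, NumPy 2.4.6, SciPy 1.17.1 and pandas 2.3.3 were used, with edgeR 4.0.16 in R 4.3.3 for TMM factors alone and matplotlib 3.10.9 for plots. Promoter windows came from RefSeq. The result of 1 alternative is not reported here.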

Additional observations from a re-analysis of the deposited data

Results flagged for a closer look

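For 3 genes the difference between the Gli1+ and Gli1- libraries in the ratio of members to paired cells at 7 dpi was flagged. Their ratios had opposite signs in the 2 libraries, as did those of other genes, Col1a1 and Tnmd among them. The differences were not tested, since each sort has 1 library. Itga6, an integrin chain of epithelial and endothelial cells, had log2 ratios of -1.24 in the Gli1+ library and 0.60 in the Gli1- library, which differed by -1.84. Kera, the proteoglycan keratocan, had ratios of -0.72 and 0.76, which differed by -1.48. Wnt5a, a secreted Wnt ligand, had ratios of 0.90 and -0.52, which differed by 1.42, and at 21 dpi its ratios were 1.31 and 0.83.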

How the results depend on the processing

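Without pairing by depth 188 genes were higher and 360 lower, and 72 of the 72 higher and 154 of the 174 lower genes were among them. With comparison cells that needed only depth, mitochondrial share, Pdgfra and no Tnn 56 were higher and 181 lower, 38 and 108 of them shared. With bins of depth in place of pairs 43 were higher, 28 of them shared with the 72. Without cells with Pi16 or Dpp4 23 were higher and 68 lower. A minimum of 20 UMIs gave 154 and 318, one of 500 UMIs 31 and 74, and a limit of 1.5-fold 279 and 376. The share of members in the Gli1+ and Gli1- libraries of 7 dpi was 25.8% and 21.3% with at least 3 Tnn UMIs, 10.3% and 9.05% with at least 10, 15.4% and 11.0% by Tnn per 10000 UMIs, 9.09% and 6.58% in cells thinned to 5000 UMIs, 13.6% and 13.9% without the Pdgfra requirement and 25.7% and 22.6% with dividing cells kept. The cause of these differences was not tested. With likely doublets removed 77 genes were higher and 178 lower, and with TMM scaling 58 and 194. Leaving out the 5 richest cells of each gene and arm, which was chosen after seeing the data, gave 89 and 155. Of the 53 named genes and list examples that were 2-fold in both libraries, 53 stayed so without pairing and with likely doublets removed, 50 with TMM scaling, 39 with bins of depth, 38 with those comparison cells and 35 of 51 without Pi16 or Dpp4 cells. None changed sign in both libraries. In the Gli1+ library Col2a1 did, at -0.06 with at least 3 Tnn UMIs and without Pi16 or Dpp4 cells, and at -0.04 without its 5 richest cells. The comparison within cells that had Xist and no Y-linked UMIs could not be run, with 0 and 1 members, nor that without cells carrying any marker of another cell type, keratins included, which left 0 members in the Gli1+ library. No paired analysis was possible because each condition has 1 library: by the labels the fractions of a time point share their mice, but cells of single mice cannot be separated and no pair is repeated.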
